A study of Mus musculus with 1528 samples.

Results

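The *Tnf*-high cells are single macrophages in which *Tnf*, the gene for the inflammatory cytokine TNF, reached at least 100 CPM, its fragments scaled to the depth of the cell. They were picked by this level alone from the 1439 cells of 1524 sorted wells that had at least 200000 gene fragments, at least 5000 detected genes and at most 10% mitochondrial fragments. 74 cells met the level, or 5.14% of the kept cells, and 1365 did not. The level of *Tnf* therefore describes these cells and is not a finding. The comparison asked whether M2 genes, the genes that IL4 and IL13 induce in macrophages, were lower in *Tnf*-high cells than in the other cells of the same treatment.

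mRNA was measured in single bone marrow–derived macrophages (BMDMs) by Smart-seq2, which makes full-length cDNA from 1 cell per well and carries no molecular identifiers. All cells came from wild-type mice, C57BL/6 in the labels and C57BL/6J males in the methods for BMDMs, were grown with M-CSF and were sorted as live single cells. 2 mice each gave cells treated for 24 h with IL4+IL13 and cells treated with IL4+IL13+TNF, with each cytokine at 10 ng/ml. The design names 2 separate mice, and the number 1 or 2 in the name of each well was taken as the mouse. The 4 samples, 1 per mouse and treatment, held between 355 and 363 kept cells and were spread over 4 plates, each with both treatments of 1 mouse. The age of the mice was not given in the sources used here.

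TNF is released from macrophages after its membrane form is cut by the protease ADAM17, and it signals through 2 receptors, TNFR1 and TNFR2, to the NF-κB and MAP kinase pathways. NF-κB induces its own brakes, among them the inhibitor IκBα, encoded by *Nfkbia*, and the ubiquitin-editing enzyme A20, encoded by *Tnfaip3*. IL4 and IL13 act through STAT6 and induce lectin receptors and secreted proteins that are used as marks of M2 or tissue reparative macrophages.

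*Tnf* lies on chromosome 17 at 35199381 to 35202007 on the minus strand of mm10 (ENSMUSG00000024401), between the related genes *Ltb* and *Lta*. Across the cells, the 3 genes whose level followed *Tnf* most closely were *Nfkbia*, *Tnfaip3* and *Cxcl2*, which encodes a chemokine that attracts neutrophils. All 3 are known targets of NF-κB. To show whether a κB motif lies near their starts, the 250 bases before the start of *Tnf* and of these genes are shown, 5′ to 3′ on the strand of the gene, from RefSeq on GRCm38.p6. Capitals mark matches to the 1 form of the κB motif that was searched for, on either strand. It is GGG and TTTCC with any 2 bases between them, and other forms were not searched for.
Tnf, chr17:35202008-35202257, minus strand: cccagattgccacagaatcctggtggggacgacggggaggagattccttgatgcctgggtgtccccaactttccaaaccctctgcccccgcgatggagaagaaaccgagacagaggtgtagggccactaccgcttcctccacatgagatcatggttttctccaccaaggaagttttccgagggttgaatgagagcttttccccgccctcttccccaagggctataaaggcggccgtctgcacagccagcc
Nfkbia, chr12:55492648-55492897, minus strand: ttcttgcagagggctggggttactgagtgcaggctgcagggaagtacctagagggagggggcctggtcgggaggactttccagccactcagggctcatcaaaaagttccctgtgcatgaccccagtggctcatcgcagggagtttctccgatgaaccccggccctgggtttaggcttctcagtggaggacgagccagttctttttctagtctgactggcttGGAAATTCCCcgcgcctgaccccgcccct
Tnfaip3, chr10:19015411-19015660, minus strand: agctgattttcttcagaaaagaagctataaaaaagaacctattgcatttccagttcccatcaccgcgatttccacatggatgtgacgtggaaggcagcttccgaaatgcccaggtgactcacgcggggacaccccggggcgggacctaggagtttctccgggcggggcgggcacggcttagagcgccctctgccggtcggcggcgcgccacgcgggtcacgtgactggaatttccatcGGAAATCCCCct
Cxcl2, chr5:90903649-90903898, plus strand: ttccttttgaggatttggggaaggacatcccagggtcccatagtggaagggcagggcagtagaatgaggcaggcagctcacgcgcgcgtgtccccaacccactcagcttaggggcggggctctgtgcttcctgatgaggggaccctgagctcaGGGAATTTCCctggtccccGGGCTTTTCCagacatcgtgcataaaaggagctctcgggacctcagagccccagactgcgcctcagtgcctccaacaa
Of 32851 such windows in the table, 1.41% held the motif. *Nfkbia* held 1 match, at 29 to 20 bases before the start, and *Tnfaip3* held 1, at 12 to 3 bases. *Cxcl2* held 2, at 97 to 88 and at 78 to 69 bases. The second listed start of *Tnfaip3* and the window of *Tnf* held none of these letters. The AP-1 motif TGANTCA, which was in 6.75% of the windows, was found in that of *Tnfaip3* at 136 to 130 bases and in none of the other 3 shown. A match is a string of letters and was not tested as a binding site.

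The *Tnf*-high cells were unequally spread over the samples. With IL4+IL13, 11 of 362 cells of mouse 1 were *Tnf*-high, a share of 3.04% with a 95% exact Clopper-Pearson interval of 1.53 to 5.37%, and 5 of 359 cells of mouse 2, or 1.39% (0.454 to 3.22%). With IL4+IL13+TNF, the share was 48 of 363 in mouse 1, or 13.2% (9.91 to 17.1%), and 10 of 355 in mouse 2, or 2.82% (1.36 to 5.12%). Both mice had the larger share with TNF, but mouse 2 with TNF did not exceed mouse 1 without it. The mean share was 2.22% without and 8.02% with TNF, a difference of 5.80 ± 6.19 percentage points (SD, n = 2 mice). The exact two-sided permutation test, which did not use the pairing by mouse, gave p = 0.667. With 2 mice per treatment this test cannot go below 0.333. The difference was 10.2 points in mouse 1 and 1.42 points in mouse 2. 64.9% of all *Tnf*-high cells thus came from 1 sample, mouse 1 with IL4+IL13+TNF. Intervals cover counting error only.

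Within a mouse, the 2 plates gave similar shares. Mouse 1 with TNF had 19 of 178 cells on plate 2 and 29 of 185 on plate 3, or 10.7% and 15.7%. Mouse 2 with TNF had 3 of 175 cells on plate 4 and 7 of 180 on plate 5, or 1.71% and 3.89%. Without TNF, the plates of mouse 1 gave 3.31% and 2.76% and those of mouse 2 gave 1.62% and 1.15%. Plate and mouse cannot be told apart here, since each plate held 1 mouse. On all 4 plates the share was higher with TNF, but plate 4 held 3 *Tnf*-high cells with each treatment, of 185 cells without and 175 with TNF. The *Tnf*-high cells lay in rows B to H without TNF and in rows I to P with it. The part of the rows was not tested.

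*Tnf* was measured on a long scale from 0 upward, with no gap at the chosen level. With TNF, mouse 1 had 178 cells without a *Tnf* fragment and mouse 2 had 306. Without TNF, the numbers were 245 and 314. *Tnf* was found in 51.0% and 13.8% of the cells with TNF and in 32.3% and 12.5% without it, for mouse 1 and mouse 2. Among the *Tnf*-high cells, the lowest, median and highest levels with IL4+IL13 were 103, 141 and 324 CPM in mouse 1 and 139, 179 and 203 CPM in mouse 2. With IL4+IL13+TNF they were 102, 177 and 490 CPM in mouse 1 and 103, 138 and 785 CPM in mouse 2. These cells held 46.8% and 64.2% of the summed *Tnf* CPM of their sample without TNF, and 69.8% and 67.0% with it. The 3 cells just inside the limit had 102, 103 and 103 CPM, and the 3 just outside had 99.9, 99.7 and 99.5 CPM. The level rested on 27 to 228 *Tnf* fragments per cell. When each cell was thinned to 200000 fragments, 71 of the 74 stayed at 100 CPM or more and 6 other cells reached it.

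**Figure D1:**
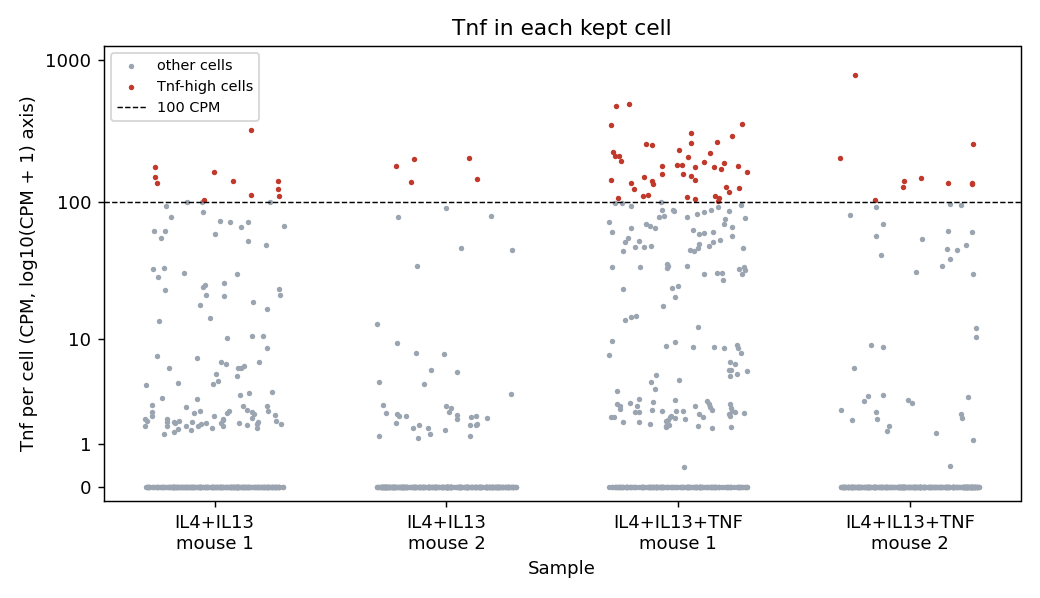
*Tnf* per cell in CPM on a log10(CPM + 1) axis for the 4 samples, with *Tnf*-high cells in red, the other cells in grey and a dashed line at 100 CPM. Cells fill the range on both sides of the line, and 48 of the 74 cells above it are from mouse 1 with IL4+IL13+TNF.

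*Tnf*-high cells did not stand apart in the depth, detected genes or mitochondrial share of their libraries. Their median depth was 457615 and 438621 fragments without TNF and 443654 and 512880 with it, against 479576, 477796, 447264 and 486759 in the other cells. The median number of detected genes was 7576 and 7534 without TNF and 8382 and 7914 with it, against 7874, 7403, 8118 and 7837. The median mitochondrial share lay between 2.71 and 3.59% in *Tnf*-high cells and between 2.78 and 3.77% in the others. The median share of spike-in fragments was 0.0592 and 0.111% without TNF and 0.0458 and 0.0531% with it, against 0.0445, 0.0712, 0.0418 and 0.0550%. It was thus higher in *Tnf*-high cells of both mice without TNF, and lower only in mouse 2 with TNF. All 10 macrophage markers, among them *Adgre1*, *Csf1r* and *Lyz2*, were found in the *Tnf*-high cells. Their summed level was 10644 and 15099 CPM without TNF and 29457 and 33209 CPM with it, against 16860, 18282, 27628 and 27427 CPM in the others, so it was lower in *Tnf*-high cells without TNF and higher with it. The summed levels of neutrophil, T and NK cell, B cell, stromal and erythroid markers were at most 3.18 CPM, and all 6 erythroid markers were at 0. The 4 monocyte markers summed to 64.8 and 51.3 CPM without TNF and 4.2 and 23.6 CPM with it, against 7.70, 23.9, 11.4 and 12.1 CPM in the others. This sum was higher in *Tnf*-high cells of 3 samples, but the markers did not all follow it. Of the 4, 1 was lower and 0 were higher in 4 of 4 samples, and 3 had 0 fragments in at least 1 sum of *Tnf*-high cells. The mast cell list stood at 138 CPM in mouse 1 with IL4+IL13, against 7.02 CPM, and at most 2.95 CPM in the other samples. Nearly all of the 138 CPM was *Kit*, the receptor gene for stem cell factor, with 99.9% of its fragments from 1 of those 11 cells, while *Mcpt8*, *Ms4a2* and *Fcer1a* were at 0. The part of either list in the results below was not tested.

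To compare genes, fragments were summed over the *Tnf*-high cells and over the other cells of each sample, which gave 8 sums. The sums of *Tnf*-high cells held 4858315 and 2690969 fragments without TNF and 21684928 and 4871781 with it. edgeR's quasi-likelihood test compared the classes within each sample over 17015 genes, with Benjamini-Hochberg adjustment. No gene passed an adjusted p of 0.05 for the mean of both treatments, 0% of those tested, and none passed within IL4+IL13, within IL4+IL13+TNF or for the difference between the treatments. The smallest adjusted p-values by edgeR were 0.799, 0.349, 1.00 and 0.704 in these 4 comparisons. At an unadjusted p under 0.05, edgeR gave 1058 (6.22%), 1278 (7.51%), 200 (1.18%) and 598 (3.51%) genes. DESeq2 on the same sums called 458 (2.98%), 669 (4.65%), 15 (0.0899%) and 211 (1.54%) of the genes to which it gave an adjusted p. Of the 458, 22 were higher and 436 lower, and 344 of the 436 had 0 fragments in at least 1 sum of *Tnf*-high cells. Over all genes, 776 (4.56%) were higher in 4 of 4 samples and 2116 (12.4%) were lower in 4 of 4. The counts of list members below are read against these shares, and fold changes are log2 values for *Tnf*-high against other cells. The median over all genes was −0.26 for the mean of both treatments.

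The M2 signature genes of the study were *Retnla*, *Clec10a*, *Mgl2*, *Mrc1*, *Il10* and *Apoe*. This list was named with these samples in view and is no independent evidence of a direction. None of the 6 passed the threshold of the edgeR test. 1 of 6, *Apoe*, was lower in 4 of 4 samples, against 12.4% of all genes, and none was higher in 4 of 4. Their median log2 fold change was −0.45. With counts under 3 fragments set to 3, which is the lowest level taken as measurable, the median was −0.28 against −0.08 over all genes.

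*Clec10a* and *Mgl2* encode the C-type lectins of the CD301 family, and *Mrc1* encodes the mannose receptor CD206. *Mrc1* stood in sums of *Tnf*-high cells at 1067 (mouse 1) and 987 (mouse 2) CPM with IL4+IL13 and at 603 and 809 CPM with IL4+IL13+TNF (scaled by TMM, as are all levels of sums). The other cells had 1202, 1224, 558 and 752 CPM. The classes of each sample were close, with a log2 fold change of −0.07 ± 0.08 (SE), a 95% interval of −0.28 to 0.15 and an adjusted p of 0.897 by edgeR.

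*Clec10a* in *Tnf*-high cells stood at 284, 103, 100.7 and 140.5 CPM in the same order, against 256, 349, 80.6 and 122 CPM. It was higher in 3 samples and lower in mouse 2 with IL4+IL13, and the log2 fold change was −0.27 ± 0.34 (interval −1.17 to 0.63). *Mgl2* stood at 1526, 392.1, 509 and 154 CPM, against 766, 641, 367 and 513 CPM. It was higher in both samples of mouse 1 and lower in both of mouse 2. Its log2 fold change was −0.24 ± 0.48 (interval −1.51 to 1.02). Without the sample of mouse 2 with IL4+IL13, the fitted values were 0.19 for *Clec10a* and 0.17 for *Mgl2*, and without that of mouse 2 with TNF *Mgl2* was at 0.31.

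*Retnla*, which encodes the secreted protein RELMα, stood at 0.400, 549, 0.145 and 3.45 CPM in *Tnf*-high cells and at 85, 496, 12.3 and 24.1 CPM in the others. It was lower in 3 samples and higher in mouse 2 with IL4+IL13, where 1 of the 5 *Tnf*-high cells gave 96.7% of its fragments. The edgeR test gave a log2 fold change of −3.45 ± 1.46 with an adjusted p of 0.807. The value was −2.01 without mouse 1 with IL4+IL13, −6.04 without mouse 2 with IL4+IL13 and −0.17 as a mean of log values over cells. *Retnla* was found in 2 of 11, 5 of 5, 3 of 48 and 5 of 10 *Tnf*-high cells, against 24.8%, 88.4%, 9.21% and 62.9% of the others. *Il10*, an anti-inflammatory cytokine gene, was at 27.0, 0, 4.43 and 0 CPM against 8.26, 3.76, 1.6 and 0.833 CPM, with most cells at 0.

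*Apoe*, which encodes the lipid carrier apolipoprotein E, stood at 1.6, 26.2, 27.1 and 81.9 CPM in *Tnf*-high cells and at 241, 324, 86.9 and 90.2 CPM in the others. The gap was wide in both mice without TNF and narrow in mouse 2 with TNF. The log2 fold change was −3.05 ± 0.69, with an unadjusted p of 0.00784 and an adjusted p of 0.799 by edgeR. As a mean of log values over cells the log2 difference was −0.90. DESeq2 called *Apoe* and *Retnla* lower for the mean of both treatments, among the 436 genes that it called lower. *Apoe* is carried by a minority of cells: 76 of 351 and 87 of 354 other cells had 100 CPM or more without TNF, and 37 of 315 and 42 of 345 with it. Among *Tnf*-high cells these were 0 of 11, 0 of 5, 3 of 48 and 1 of 10. The exact 95% intervals for 0 of 11 and 0 of 5 allow shares of up to 28.5% and 52.2%, which the shares of the other cells, 21.7% and 24.6%, do not exceed. The median cell had nearly as much *Apoe* in both classes, 1.87 against 2.15 CPM and 29.7 against 36.1 CPM without TNF.

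**Figure D2:**
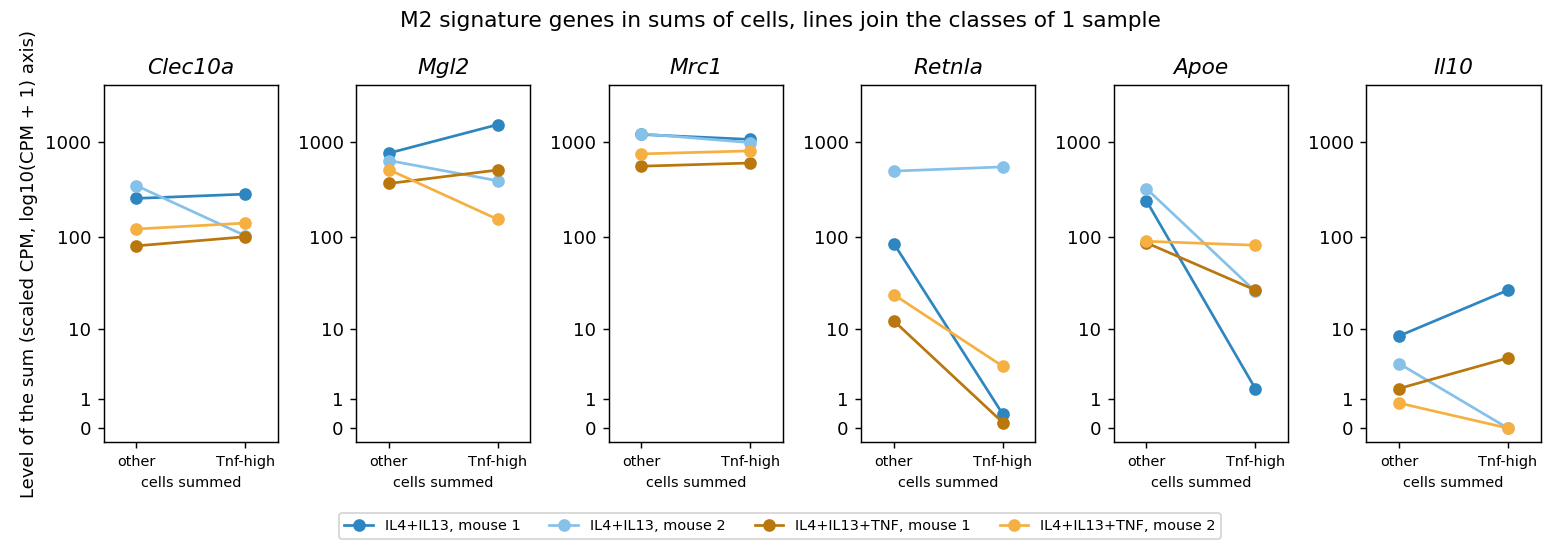
Levels of the 6 M2 signature genes in sums of cells (TMM-scaled CPM on a log10(CPM + 1) axis), with lines joining the other cells and the *Tnf*-high cells of 1 sample. Only *Apoe* moves down in each of the 4 samples. *Mrc1* stays nearly level, and *Clec10a* and *Mgl2* go up in some samples and down in others.

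Seen cell by cell, most *Tnf*-high cells carried *Mrc1*, and many carried *Mgl2* and *Clec10a*. *Mrc1* reached 100 CPM in 10 of 11, 5 of 5, 40 of 48 and 9 of 10 *Tnf*-high cells, in the order used above. In the other cells the shares were 92.3%, 91.2%, 82.9% and 77.1%. *Mgl2* reached it in 9 of 11, 3 of 5, 24 of 48 and 5 of 10, against 72.6%, 68.1%, 43.2% and 46.4%. *Clec10a* reached it in 7 of 11, 2 of 5, 12 of 48 and 3 of 10, against 57.0%, 61.3%, 21.6% and 32.8%. For the 48 *Tnf*-high cells of mouse 1 with TNF these are shares of 83.3, 50 and 25%, with exact intervals of 69.8 to 92.5%, 35.2 to 64.8% and 13.6 to 39.6% that hold the shares of the other cells. All 3 receptors together reached 100 CPM in 10 of these 48 cells, or 20.8%, against 14.6% of the other cells. High *Tnf* and high M2 receptor mRNA were thus found in the same cells. The median *Mgl2* level in *Tnf*-high cells was 752, 474, 99.4 and 81.1 CPM, against 401, 321, 43.9 and 81.6 CPM.

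**Figure D3:**
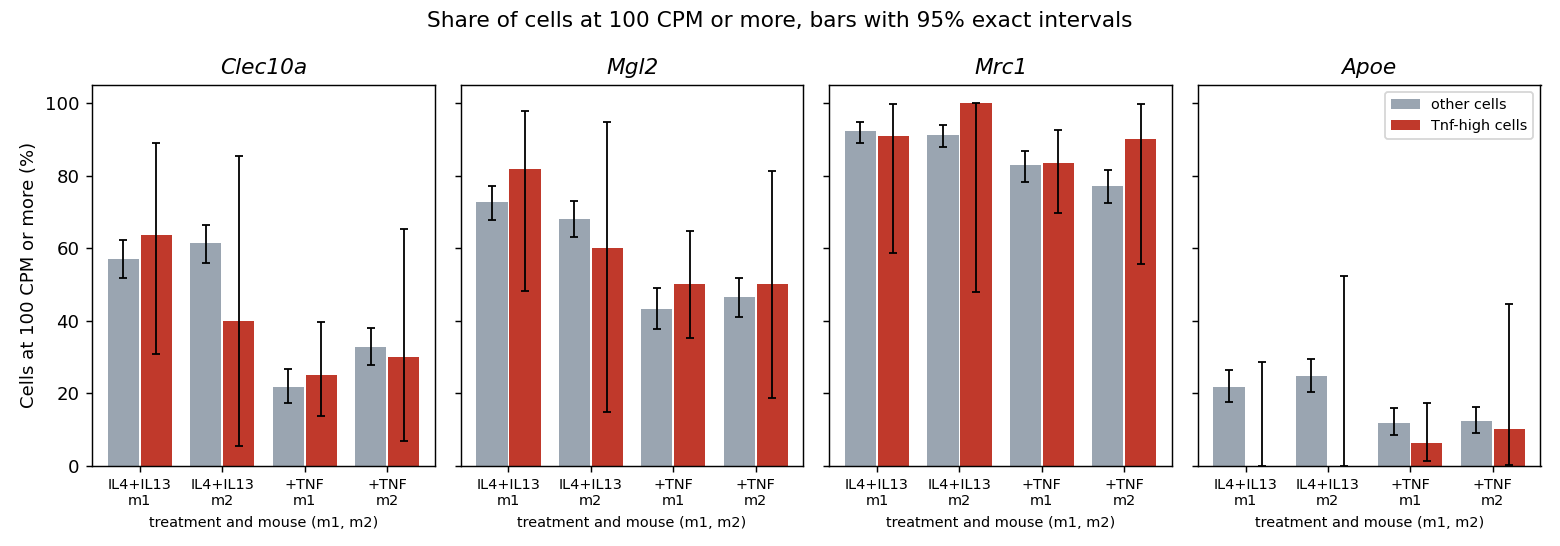
Share of cells at 100 CPM or more of *Clec10a*, *Mgl2*, *Mrc1* and *Apoe* in the other cells (grey) and the *Tnf*-high cells (red) of each sample, with 95% exact intervals. The red and grey bars of the 3 receptors lie close in most samples, and no *Tnf*-high cell of either mouse with IL4+IL13 is at 100 CPM of *Apoe*.

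The M2 receptors were also set against *Tnf* below 100 CPM. In mouse 1 with TNF, the median *Mrc1* level was 450 CPM in 178 cells with no *Tnf*, 417 CPM in 68 cells under 10 CPM, 291 CPM in 69 cells from 10 to under 100 CPM and 424 CPM in the *Tnf*-high cells. In mouse 2 with TNF it was 594, 643, 177 and 675 CPM over 306, 20, 19 and 10 cells. The lowest median was in the class from 10 to under 100 CPM in both mice, and not in the *Tnf*-high cells. *Mgl2* had medians of 60.9, 50.3, 26.0 and 99.4 CPM in mouse 1 and of 94.0, 41.6, 10.9 and 81.1 CPM in mouse 2, again lowest in that class. Without TNF, in mouse 1, the median of *Mgl2* was 334, 469, 588 and 752 CPM, highest in the *Tnf*-high cells. In mouse 2 it was 334, 231, 681 and 474 CPM, highest from 10 to under 100 CPM, over 314, 33, 7 and 5 cells. These are descriptions of cells that share a culture, with no test.

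The effect of TNF on the M2 signature genes was also set side by side in the 2 classes. In the other cells, the log2 fold change of TNF against no TNF was −1.67 for *Apoe*, −1.58 for *Clec10a*, −0.68 for *Mgl2*, −0.89 for *Mrc1*, −2.30 for *Il10* and −4.0 for *Retnla*. In *Tnf*-high cells it was 1.95, −0.69, −1.55, −0.56, −2.58 and −7.56. By edgeR without a mouse block, none of the 6 genes passed in either class. With the mouse as a block, 5 of the 6 passed in the other cells, all but *Mgl2*, and none in *Tnf*-high cells. Over all genes, 312 higher and 300 lower of 17032 passed in the other cells with this block. In *Tnf*-high cells 0 of 11917 passed, so the 2 counts of M2 signature genes cannot be compared. The difference between the classes is the interaction term of the class fit, and its unadjusted p was 0.0271 for *Apoe*, 0.0944 for *Mrc1* and 0.187 for *Clec10a*, with no gene past the adjusted threshold.

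Of 20 further M2 genes, 18 were tested and none passed. 4 of the 18 were lower in 4 of 4 samples (*Egr2*, *Mertk*, *Fn1* and *Atp6v0d2*) and 1, *Ptgs1*, was higher in 4 of 4. *Egr2*, a transcription factor gene induced by IL4, stood at 15.6, 17.5, 106 and 55.8 CPM in *Tnf*-high cells, against 49.5, 82.2, 129.5 and 103 CPM. Its log2 fold change was −1.26 ± 0.25 with an adjusted p of 0.799 by edgeR. *Mertk*, the receptor tyrosine kinase gene for uptake of dying cells, was at 1.0, 4.0, 5.20 and 6.68 CPM against 14.1, 34.6, 7.68 and 13.4 CPM. *Ptgs1*, which encodes the constitutive cyclooxygenase, was at 126, 211, 102 and 210 CPM, against 88.0, 126, 74.7 and 65.1 CPM.

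With TNF, 14 of these 18 genes had lower sums in *Tnf*-high cells of both mice, where 27% of all genes did. Without TNF, 4 were lower and 6 higher in both mice, where 28.4% and 30.4% of all genes were. Some gaps with TNF were narrow in mouse 1, as for *Klf4* at 79.7 against 82.8 unscaled CPM and *Irf4* at 15.8 against 16.8 unscaled CPM. Others of the 14 had low sums in *Tnf*-high cells with TNF, as for *Cish* at 0.184 and 0 and *Fn1* at 2.72 and 0.821 unscaled CPM. The 27% is over genes of all levels and was not matched to genes as sparse as these. At an unadjusted p under 0.05 by edgeR within IL4+IL13+TNF, 3 of the 18 were lower and 1 higher, against 178 and 22 of 17015 genes. *Ccl22* and *Ccl17*, the genes of 2 chemokines of the CCR4 receptor, gave the widest gaps with TNF. *Ccl22* stood at 0.241 and 4.09 CPM in *Tnf*-high cells against 50.1 and 381 CPM in the others, with an unadjusted p of 0.00146. *Ccl17* stood at 0 and 0.431 CPM against 3.32 and 73.0 CPM, and its p was 0.00326. Neither gene passed the adjusted threshold. Both levels came from few cells. *Ccl22* reached 100 CPM in 6 of 315 and 15 of 345 other cells and in none of the 58 *Tnf*-high cells with TNF. Without TNF, 1 of the 11 *Tnf*-high cells of mouse 1 reached it.

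Of these 6 and 15 other cells, 1 and 10 also had 100 CPM or more of *Ccr7*, a chemokine receptor gene of mature dendritic cells. In all, *Ccr7* was at that level in 1 and 11 other cells of mouse 1 and mouse 2 with TNF. None of the 48 and 10 *Tnf*-high cells reached it, for which the exact 95% intervals allow shares of up to 7.40% and 30.8%. The summed level of the 7 dendritic cell markers was 11.7 and 6.16 CPM in *Tnf*-high cells with TNF and 31.7 and 208 CPM in the others. When the 12 cells with *Ccr7* were left out, a step chosen after the data were seen, *Ccl22* in the other cells was at 11.9 and 68.4 CPM of all fragments, and 13 of the 18 M2 genes were still lower in *Tnf*-high cells of both mice.

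**Figure D4:**
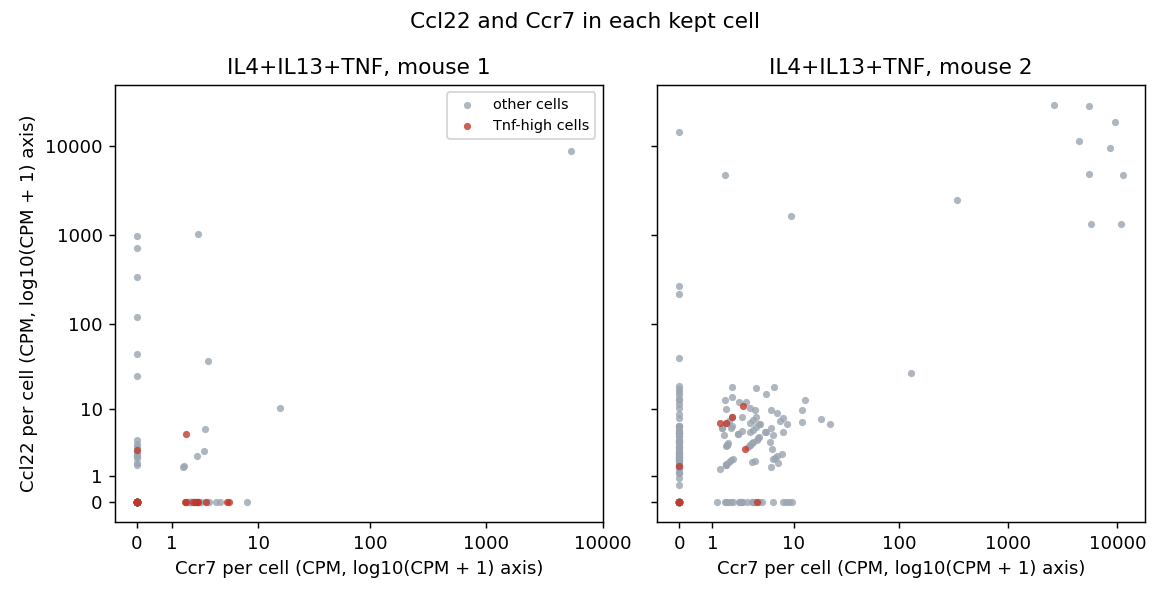
*Ccl22* against *Ccr7* in each cell with IL4+IL13+TNF (CPM on log10(CPM + 1) axes) for mouse 1 and mouse 2, with *Tnf*-high cells in red. A group of 1 and 10 other cells lies at 100 CPM or more of both genes, and all red points lie below 100 CPM of each.

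*Nfkbia* had the highest mean Spearman correlation with *Tnf* over the cells of the 4 samples, 0.144, among 10634 genes with fragments in 25% or more of cells. *Tnfaip3* followed with 0.129 and *Cxcl2* with 0.127. In mouse 1 with TNF the correlations were 0.271, 0.228 and 0.243, and in mouse 2 with TNF they were 0.145, 0.120 and 0.0752. Without TNF they were 0.145, 0.0871 and 0.0131 in mouse 1 and 0.0129, 0.0800 and 0.177 in mouse 2. The next in order were *Gm37201*, *Gm15974*, *Gcsh*, *Vbp1*, *Gm15033*, *Xrcc6* and *Bloc1s5*, from 0.118 to 0.109. All of these are weak and rest on sparse counts of cells that share a culture, so they serve to name genes and carry no test.

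With TNF, the median *Nfkbia* level was 624 and 509 CPM in *Tnf*-high cells of mouse 1 and mouse 2, against 403 and 316 CPM. *Tnfaip3* had medians of 89.8 and 99.0 CPM against 21.1 and 6.43 CPM. *Cxcl2* had medians of 481 and 29.8 CPM against 74.5 and 2.38 CPM. The 3 genes were chosen for following *Tnf* in these same cells, so their higher medians, by 1.5 times or more in both mice, are a description. Over the 7271 genes with a median above 0, 8.91% had medians that much higher in both mice. *Cxcl2* was at 100 CPM or more in 35 of 48 and 4 of 10 *Tnf*-high cells, or 72.9% and 40.0%, against 46.7% and 18.6%. *Tnfaip3* was so in 22 of 48 and 5 of 10, against 21.6% and 21.7%. All 3 genes together reached 100 CPM in 17 of 48 and 3 of 10 *Tnf*-high cells, or 35.4% and 30.0%, against 13% and 5.51%.

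In sums, *Cxcl2* stood at 589 and 283 CPM in *Tnf*-high cells against 271 and 74.7 CPM with TNF, and at 51.2 and 0.727 CPM against 12.3 and 8.82 CPM without it. *Nfkbia* stood at 703 and 647 CPM against 504 and 399 CPM with TNF, and at 236 and 32.7 CPM against 114 and 123 CPM without it. Its log2 fold change within IL4+IL13+TNF was 0.59 ± 0.68, and that of *Tnfaip3* was 0.95 ± 0.55. *Tnfaip3* was higher in 4 of 4 samples, at 30.8, 17.5, 96.3 and 142 CPM against 8.47, 17.4, 57.4 and 63.2 CPM, although the 2 sums of mouse 2 without TNF were nearly equal and 1 cell gave 90.3% of its fragments in mouse 1 without TNF. Its adjusted p for the mean of both treatments was 0.807 by edgeR. Of the 23 NF-κB genes, all tested, 2 were higher in 4 of 4 samples (*Tnfaip3* and *Sod2*) and 3 were lower (*Birc2*, *Birc3* and *Ripk2*). With TNF, 9 were higher in both mice and 7 were lower, where 26.7% of all genes were higher and 27% lower. The list as a whole thus did not go one way, and its median within IL4+IL13+TNF was 0.06.

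Without TNF, *Nfkbia* reached 100 CPM in 10 of 11 *Tnf*-high cells of mouse 1, against 43.6% of the other cells, but in 1 of 5 of mouse 2, against 37.6%. The mice went opposite ways. *Cxcl2* and *Tnfaip3* had medians of 0 in these *Tnf*-high cells.

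**Figure D5:**
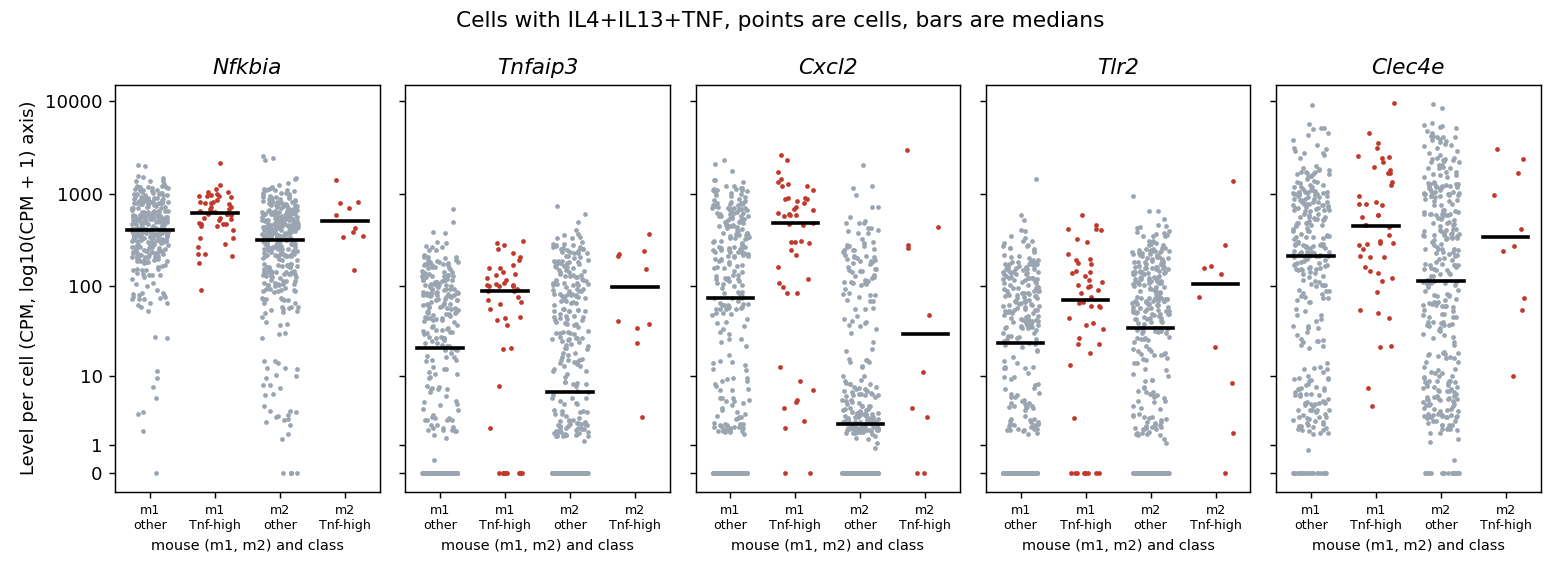
Levels per cell of *Nfkbia*, *Tnfaip3*, *Cxcl2*, *Tlr2* and *Clec4e* with IL4+IL13+TNF (CPM on a log10(CPM + 1) axis), for the other cells (grey) and *Tnf*-high cells (red) of mouse 1 (m1) and mouse 2 (m2), with bars at the medians. The median of *Tnf*-high cells is above that of the other cells in both mice for each of the 5 genes, and the ranges overlap.

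*Tlr2*, the receptor gene for bacterial lipoproteins, had the smallest p of the inflammatory macrophage genes. It stood at 45.0, 41.8, 133 and 159.9 CPM in *Tnf*-high cells and at 15.6, 22.5, 69.6 and 83.1 CPM in the others. Each sample gave a higher level in *Tnf*-high cells. The log2 fold change was 1.07 ± 0.23, or 1.21 without and 0.94 with TNF, with an unadjusted p of 0.00661 and an adjusted p of 0.799 by edgeR. In mouse 2 without TNF, 1 cell gave 99.1% of the fragments of *Tlr2*. With TNF, 20 of 48 and 5 of 10 *Tnf*-high cells had 100 CPM or more, against 22.9% and 29.9%.

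*Clec4e*, which encodes the lectin Mincle, was at 1133 and 786 CPM in *Tnf*-high cells with TNF, against 616 and 708 CPM. Its medians were 445 and 346 CPM against 212 and 114 CPM. Of 16 tested inflammatory macrophage genes, 9 were higher in both mice with TNF and 3 were lower, against 26.7% and 27% of all genes. Without TNF, 4 were higher and 5 lower, against 30.4% and 28.4%. *Cd40* and *Tlr2* were higher in 4 of 4 samples. *Acod1*, which makes itaconate, was at 285 and 363 CPM against 112 and 279 CPM. Without TNF, *Clec4e* was at 12.6 and 5.09 CPM against 19 and 20.4 CPM.

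No chemokine gene passed the edgeR test. With TNF, 8 of 13 tested were higher in *Tnf*-high cells of both mice and 1 was lower, against 26.7% and 27% of all genes. Without TNF, 1 was higher and 5 were lower, against 30.4% and 28.4%. The difference between the treatments was tested gene by gene and not for the list. *Ccl4* stood at 93.4 and 118 CPM against 58.3 and 32.4 CPM with TNF, and at 66.6 and 7.64 CPM against 161 and 63.4 CPM without it. *Ccl8* stood at 279 and 595 CPM against 215 and 476 CPM with TNF, and at 1.0 and 2.55 CPM against 38.7 and 60.2 CPM without it. The difference between the treatments had the smallest p of all genes for *Ccl8*, with an adjusted p of 0.704 by edgeR, so none of these passed. *Ccl5* stood at 353 and 200.2 CPM against 36.5 and 55.6 CPM with TNF, but 1 cell gave 95.9% and 91.9% of its fragments in *Tnf*-high cells of mouse 1 and mouse 2.

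Other cytokine genes were sparse. 8 of 18 were tested, and none was higher in 4 of 4 samples. *Lta* and *Ltb*, the neighbours of *Tnf*, were each found in 1 of the 74 *Tnf*-high cells, against 44 and 20 of the other cells. *Il6* was found in 2 *Tnf*-high cells and in 67 others. *Il1b* was lower in 4 of 4 samples and at 100 CPM or more in no *Tnf*-high cell and in 1 other cell.

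For the release and sensing of TNF itself, 10 of 12 genes were tested and none passed. *Ripk1*, the kinase gene downstream of TNFR1, was higher in 4 of 4 samples, at 131, 175, 51.4 and 98.7 CPM against 59.5, 79.0, 47.8 and 58.4 CPM (log2 fold change 0.79 ± 0.21, adjusted p of 0.799 by edgeR). *Adam17*, which encodes the TNF-cleaving protease, was at 106, 272, 443 and 701 CPM against 130.2, 218, 393 and 417 CPM. *Tnfrsf1b*, the gene of TNFR2, was at 161, 270, 242 and 332 CPM against 144, 273, 248 and 311 CPM, nearly equal in the classes of each sample. Among 10 genes of mRNA decay and MAP kinase feedback, none was higher or lower in 4 of 4 samples. *Zfp36*, whose product binds AU-rich elements and speeds decay of *Tnf* mRNA, was at 199.5, 560.1, 313 and 226 CPM against 322, 427, 266 and 287 CPM.

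Of 17 tested AP-1 and immediate early genes, 3 were higher in 4 of 4 samples (*Ier3*, *Ier5* and *Klf6*) and 2 were lower (*Egr3* and *Nr4a1*). *Klf6*, a zinc finger factor gene, was at 777, 536, 523 and 409.6 CPM against 457, 412, 473 and 364 CPM, a log2 fold change of 0.37 ± 0.11. Of 9 tested stress genes, *Atf4* and *Sqstm1* were higher in 4 of 4 samples. *Sqstm1*, which encodes the autophagy receptor p62, was at 814, 991, 1075 and 1015 CPM against 581, 603, 1020 and 968 CPM. Of 11 tested interferon genes, *Gbp2* and *Rsad2* were lower in 4 of 4 samples and none was higher. *Gbp2*, a guanylate-binding protein gene, stood at 0.800, 0, 76.4 and 123 CPM against 25.1, 40.2, 88.6 and 175 CPM. The gap in *Gbp2* was wide without TNF and narrow with it. Of 7 antigen presentation genes, *H2-DMb1* was higher in 4 of 4 samples. None of these genes passed the edgeR test. *Mamdc2*, *Kitl*, *Nes*, *Gypc*, *Proz* and *Chst11* were picked by the study as genes that IL4+IL13 induces and TNF holds back. Of these 6, *Mamdc2* and *Nes* were lower in 4 of 4 samples, both under 15 CPM in every sum.

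The genes with the smallest p among those higher in 4 of 4 samples and found in 25% or more of *Tnf*-high cells were *Tlr2*, *Tes*, *Tpx2*, *Rgs1*, *Smc4*, *Ccna2*, *Fpgt*, *Racgap1*, *Cep85* and *Mtpn*, all of which missed the threshold at an adjusted p of 0.799 by edgeR. *Tpx2*, *Smc4*, *Ccna2* and *Racgap1* act in cell division. *Tpx2*, a spindle assembly factor gene, stood at 124, 145, 45.5 and 58.6 CPM in *Tnf*-high cells, against 49.9, 32.0, 30.7 and 18.3 CPM. *Ccna2*, the gene of cyclin A, stood at 166, 82.9, 85 and 69.8 CPM against 109, 51.0, 45.8 and 22.8 CPM. Of 10 cell cycle genes, 3 were higher in 4 of 4 samples (*Top2a*, *Ccna2* and *Mcm5*) and none was lower. The summed level of the list was 1297, 1219, 706 and 494 CPM in *Tnf*-high cells and 1044, 580, 578 and 357 CPM in the others. It came from few cells, and in mouse 2 with TNF 1 cell gave 99.4% of the *Ccna2* fragments. *Top2a*, a topoisomerase gene of dividing cells, was at 100 CPM or more in 3 of 11, 3 of 5, 5 of 48 and 1 of 10 *Tnf*-high cells, against 23.4%, 12.1%, 15.2% and 6.96%. The share was thus lower than in the other cells in the sample that held most *Tnf*-high cells.

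The genes with the smallest p among those lower in 4 of 4 samples were *Tbxas1*, *Gbp2*, *Tfrc*, *Dgkh*, *Egr2*, *Nupl2*, *Myo5a*, *Tbc1d9*, *Gpnmb* and *Ceacam19*, which also missed the threshold at 0.799. *Tbxas1*, which encodes thromboxane synthase, stood at 48.6, 44.4, 198 and 193 CPM in *Tnf*-high cells against 135, 149, 225 and 216 CPM. *Tfrc*, the transferrin receptor gene for iron uptake, stood at 87.6, 189, 134 and 122 CPM against 272, 338, 252 and 367 CPM. The step in *Tfrc* was alike with and without TNF, with log2 fold changes of −1.25 ± 0.30 with it and −1.23 ± 0.30 without it. As a mean of log values over cells, however, the difference of *Tfrc* was −0.04. *Gpnmb*, a glycoprotein gene of lysosome-rich macrophages, stood at 2071, 3162, 4599 and 3914 CPM against 4257, 4312, 5834 and 4564 CPM.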

How the data were processed

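Single BMDMs of 2 mice with IL4+IL13 or IL4+IL13+TNF were grouped by the treatment, mouse and well in the labels. Left out were 4 samples whose label names no mouse and 11 columns whose name is in no sample's label. The authors deposited counts of fragments per gene and well, as whole numbers that were not normalized. According to the study's methods and the submitters' processing notes, gsnap placed the fragments on mm10 and featureCounts 1.6.3 assigned them to Ensembl 98 genes. The header of the table shows that the strand was not used. PCR copies are counted, so precision is below what the 200235 to 6122892 fragments per kept cell would give. 92 spike-in rows were left out of totals. Gene symbols were found for 55154 of 55421 identifiers.

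*Tnf*-high cells, gene lists and tests were chosen with earlier results of these data known. Fragments were summed per sample and class and tested with edgeR 4.0.16 in R 4.3.3 (quasi-likelihood test with TMM factors, p adjusted by Benjamini-Hochberg, threshold 0.05), with the sample as a block and the class within each treatment, on genes that passed filterByExpr and had fragments in 5% or more of the kept cells with or without TNF, leaving out *Tnf*. A sum needed at least 5 cells. Sums leave 2 residual degrees of freedom. The p-values of the class comparisons are set against how the difference between the classes varied between the 2 mice within a treatment. Differences in level between cultures are taken out by the block. The block comes from the design, since both classes of a sample share a culture. The mouse number pairs samples across treatments, since the labels give it to both. Differences between the mice correlated across 17015 genes with r = 0.549 in the other cells and 0.0810 in *Tnf*-high cells. Samples were called higher or lower on log2(CPM + 0.5) of TMM-scaled sums. Counts of genes with the same direction in both mice of 1 treatment used unscaled sums with counts under 3 fragments set to 3. No identical wells were found. No doublet caller was run, since cells were sorted singly. The fit was also run on simulated data, whose outcome is not given here and is not used as support.

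DESeq2 1.42.0, limma 3.58.1 on log2(CPM + 1), other thresholds, cell filters and sums were alternatives. Named genes were *Tnf*, members of the lists (those past the threshold, otherwise up to 4 with the smallest p, and all M2 signature genes), the 10 with the largest rise and fall past the threshold in 4 of 4 samples and in 25% of cells, or the next by p where too few passed, and the 10 most like *Tnf*. *Lta*, *Ltb*, *Il1b*, *Clec4e*, *Ccl4*, *Adam17*, *Tnfrsf1b*, *Zfp36*, *Ccr7*, *Kit*, *Cd40* and other list members were named outside this rule after their values were seen. Shares and medians were computed with scipy 1.17.1, pandas 2.3.3 and numpy 2.4.6 under Python 3.11.15 and plotted with matplotlib 3.10.9.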

Additional observations from a re-analysis of the deposited data

How the results depend on the processing

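The count of genes past the threshold, 0 by edgeR, was also 0 in each of the 4 comparisons for all alternatives run except DESeq2 and the fit without a gene filter. DESeq2 called 458 genes for the mean of both treatments, 669 within IL4+IL13, 15 within IL4+IL13+TNF and 211 for the difference between the treatments. Without a gene filter the numbers were 92, 205, 23 and 44. Each of these gave 2 M2 signature genes, *Apoe* and *Retnla*, and 10 genes of all lists. The fits without a replicate block and with each replicate left out gave 0. The mouse as a replicate block gave 5 M2 signature genes past the threshold for TNF in the other cells, as did DESeq2, against 0 without it, and changed no other call of those genes. Over all 17032 genes of the other cells, the block gave 312 higher and 300 lower, and DESeq2 gave 302 and 286. The fit at 200 CPM of *Tnf* was not run because 3 of the 4 *Tnf*-high sums held 1, 1 and 3 cells. Sums per plate with fewer than 5 *Tnf*-high cells were left out of that fit. These were plates 4 and 5 with IL4+IL13, with 3 and 2 cells, and plate 4 with TNF, with 3. The fit of sums per plate thus held no cells of mouse 2 with IL4+IL13, and the 2 plates of mouse 1 counted as replicates. The share of *Tnf*-high cells was higher with TNF by 2.35 to 9.54 percentage points over the thresholds, filters and thinning, and by 1.42 and 10.2 points in mouse 2 and mouse 1 alone.

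Of 390 values of 26 named genes under alternatives, 357 kept direction and call, 15 passed the threshold in place of missing it and 18 turned direction, with the cause not tested. Sizes moved more: as a mean of log values over cells *Tfrc* went from −1.24 to −0.04, *Retnla* from −3.45 to −0.17 and *Apoe* from −3.05 to −0.90. At a *Tnf* threshold of 50 CPM *Egr2* went from −1.26 to −0.43, *Tbxas1* from −0.89 to −0.25 and *Ptgs1* from 0.85 to 0.28, and without mouse 1 with IL4+IL13 *Gbp2* went from −3.19 to −7.57. *Mgl2* turned to 0.020 without the replicate block, to 0.15 as a mean of log values over cells and to 0.23 in sums per plate, and ranged from −0.80 to 0.31 with 1 sample left out, above 0 without either sample of mouse 2. *Il10* turned to 1.06, 0.16 and 0.12 in the same settings and ranged from −5.78 to 0.77, also above 0 without either sample of mouse 2 (0.77 and 0.26). *Clec10a* turned to 0.20 as a mean of log values and to 0.20 in sums per plate, and ranged from −0.75 to 0.19, above 0 without mouse 2 with IL4+IL13. *Mrc1* turned to 0.27 as a mean of log values and to 0.016 in sums per plate. All of these values from sums per plate come without mouse 2 with IL4+IL13. *Nfkbia* turned to −0.028 without a gene filter. Without mouse 1 with IL4+IL13, *Nfkbia* was at −0.66 and *Cxcl2* at −1.04, the lowest of ranges that reach 0.81 and 1.77. The 5 to 48 *Tnf*-high cells per sample and the 2 mice limit what could be detected.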
